A study of Mus musculus with 6 samples.

Results

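The genes described here make and handle leukotrienes, prostaglandin E2 and glutathione conjugates: Alox5ap, Ltc4s, Mgst1, Mgst2, Mgst3, Ptges, Alox5 and Lta4h. Their peaks were found by gene name in the table of all KLF3, ΔDL and DBD peaks, where each peak carries the name of the gene with the nearest start site. Of 22188 peaks in that table, 8 carried the name of one of the 8 genes. They lay at 4 of them, namely 3 at Mgst3, 2 at Alox5ap, 2 at Lta4h and 1 at Ptges. Ltc4s, Mgst1, Mgst2 and Alox5 had none. The genes were chosen by peak heights that were already known, since the Alox5ap peak is the highest KLF3 peak of the table and Mgst3 is a target that the study names, so these heights are given as a description and were not tested.

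V5-tagged proteins were immunoprecipitated with their DNA and sequenced (ChIP-seq) from Klf3-/- murine embryonic fibroblasts (MEFs) of the C57BL/6 strain, which lack endogenous KLF3, a zinc finger transcription factor. The cells were rescued by retroviral transduction with Klf3-V5, with ΔDL-V5 or with DBD-V5. ΔDL-V5 has 2 amino acids replaced in its CtBP contact motif, and the paper states that this protein cannot recruit the corepressor CtBP. DBD-V5 lacks the N-terminal domain and keeps the zinc fingers. Each of the 3 constructs was studied in a clonal cell line, with 2 replicates and a paired input for each, so that a difference between constructs and a difference between clones cannot be told apart. Nothing in the labels says whether the replicates were separate cultures. The rescue constructs are expressed from a retrovirus, and no sample with untransduced cells was used. Gene expression was not analysed here, so it was not checked whether these fibroblasts express the 8 genes.

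Of the 8 proteins, 6 belong to the MAPEG family, small membrane proteins of eicosanoid and glutathione metabolism. Alox5ap presents arachidonic acid to the lipoxygenase Alox5, which makes leukotriene A4. Lta4h hydrolyses leukotriene A4 to leukotriene B4, a chemoattractant of neutrophils, whereas Ltc4s joins it to glutathione to give leukotriene C4. Ptges is the inducible prostaglandin E synthase of the microsomal membrane, and Mgst1, Mgst2 and Mgst3 are microsomal glutathione transferases. Leukotriene synthesis is best known from white blood cells, while fibroblasts are known to make prostaglandin E2.

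The mm9 sequences of 6 of the 8 peaks are shown on the plus strand, because they hold the motif matches that differ between the genes. The searched KLF letters were ACACCC or ACGCCC or CCACCC or CCGCCC on either strand, which are forms of the CACCC-box and GC-box that KLF proteins recognise. Capitals mark these matches in the windows at Alox5ap (chr5:150040579-150040878), the Mgst3 promoter (chr1:169324122-169324421) and the Mgst3 first intron (chr1:169323079-169323198).
Alox5ap upstream peak: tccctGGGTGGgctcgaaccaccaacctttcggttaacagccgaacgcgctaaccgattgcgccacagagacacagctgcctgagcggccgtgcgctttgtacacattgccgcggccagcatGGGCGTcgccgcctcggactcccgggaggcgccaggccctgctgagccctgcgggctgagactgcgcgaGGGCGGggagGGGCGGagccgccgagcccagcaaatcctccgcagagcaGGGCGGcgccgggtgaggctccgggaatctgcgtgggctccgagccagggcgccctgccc
Mgst3 promoter peak: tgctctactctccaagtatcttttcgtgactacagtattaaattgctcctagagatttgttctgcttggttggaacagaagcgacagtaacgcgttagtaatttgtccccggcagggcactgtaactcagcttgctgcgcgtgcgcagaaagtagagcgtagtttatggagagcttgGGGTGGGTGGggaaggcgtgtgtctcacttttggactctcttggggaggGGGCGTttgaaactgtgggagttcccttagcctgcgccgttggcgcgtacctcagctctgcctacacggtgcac
Mgst3 first intron peak: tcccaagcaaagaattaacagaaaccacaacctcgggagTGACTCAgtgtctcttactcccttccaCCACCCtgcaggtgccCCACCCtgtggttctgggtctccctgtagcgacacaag

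Capitals in the last of these also mark TGACTCA, and capitals in the next sequences mark only TGACTCA or TGAGTCA, the letters known as the AP-1 site. They come from Ptges (chr2:30775783-30775962) and from both peaks before Lta4h (chr10:92884923-92885042 and chr10:92886466-92886575).
Ptges upstream peak: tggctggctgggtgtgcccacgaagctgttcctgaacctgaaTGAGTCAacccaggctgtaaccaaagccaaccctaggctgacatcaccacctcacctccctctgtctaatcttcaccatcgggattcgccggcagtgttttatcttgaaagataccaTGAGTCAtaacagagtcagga
Lta4h peak at -31158: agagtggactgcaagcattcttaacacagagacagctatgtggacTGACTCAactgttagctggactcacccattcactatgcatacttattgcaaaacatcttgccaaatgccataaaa
Lta4h peak at -29625: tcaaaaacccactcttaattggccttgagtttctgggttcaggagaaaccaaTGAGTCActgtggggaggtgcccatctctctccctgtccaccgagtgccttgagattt

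Peak heights are the tags (reads) in 400 bp around the peak centre, which the authors counted over both replicates of a construct and normalized to 100 M tags. The combined totals of KLF3, ΔDL and DBD were 23.3 M, 11.8 M and 16.0 M tags, so a single tag is worth 4.29, 8.45 and 6.23 normalized tags, and even coverage of mm9 would give 15.3 normalized tags in a window. With no height for each replicate there is no replicate error. A ratio of heights is therefore given with its exact conditional binomial 95% interval, which covers counting error only and assumes that every tag is a separate molecule. Replicate support comes from peaks that the authors called on each replicate alone, which rest on 1.77 M (ΔDL replicate 1) to 18.1 M tags (KLF3 replicate 2).

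All 8 peaks were among the 14115 KLF3 peaks, which were called in both KLF3 replicates, and all 8 were higher with KLF3 than with ΔDL or DBD. In normalized tags, their KLF3 heights ran from 197 to 1859 with a median of 356, their ΔDL heights from 91.8 to 989 with a median of 239, and their DBD heights from 18.3 to 124 with a median of 56.4. At every peak the order of these heights was KLF3, ΔDL, DBD, although at the Lta4h peak at -31158 ΔDL and DBD rest on about 11 and 10 tags. With heights shifted to an equal median over all peaks, DBD was above ΔDL at 2 of the 8 (that Lta4h peak and the Mgst3 peak at 799 bp), and with an equal median over the peaks of all 3 constructs they were equal at that Lta4h peak. The Mgst3 promoter and the Alox5ap upstream peak were the highest, whereas neither Lta4h peak passed 254 normalized tags. Over the 14115 KLF3 peaks the median difference in log2 height from KLF3 was -0.35 for ΔDL and -2.54 for DBD, so lower heights were usual there too. Of these KLF3 peaks, 58.2% had a lower ΔDL difference than the Lta4h peak at -29625. The share with the order KLF3, ΔDL, DBD was not counted.

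**Figure D1:**
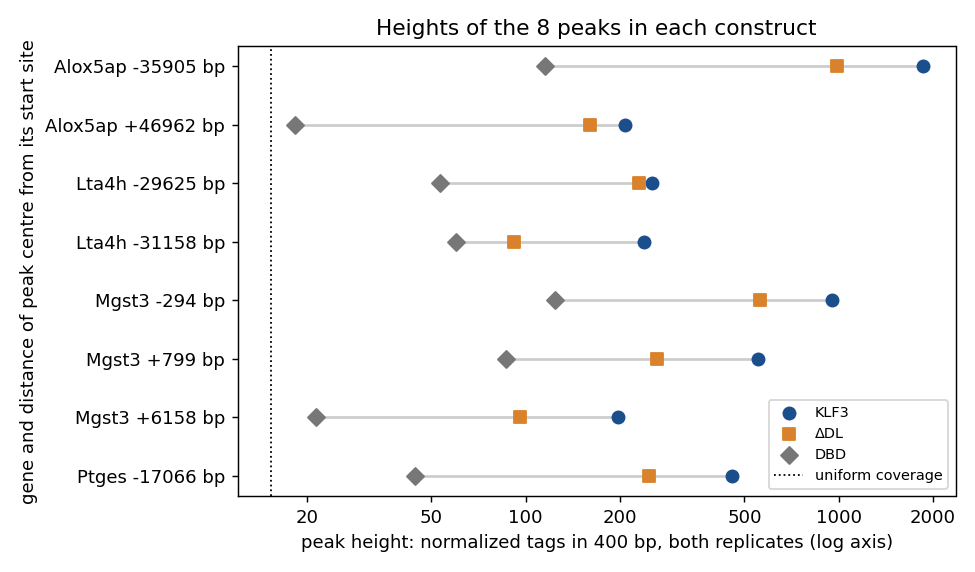
Heights of the 8 peaks in normalized tags per 400 bp (log axis) for KLF3 (circles), ΔDL (squares) and DBD (diamonds), each point combining 2 replicates; the dotted line marks even coverage at 15.3. In these heights, without any further shift, in all 8 rows the KLF3 point lies farthest to the right and the DBD point farthest to the left, with DBD at 18.3 to 124.

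The upstream peak of Alox5ap (chr5:150040529-150040929) lay 35905 bp before its start site, in sequence that the deposited annotation calls intergenic and a CpG island, and where GENCODE vM1 has no gene. Its height was 1859 with KLF3, 989 with ΔDL and 115 with DBD, from about 433, 117 and 19 tags. It ranked first of all peaks by KLF3 height, and the next, at the Myh9 promoter, had 1846. The ΔDL height was 0.532 of the KLF3 height (95% interval 0.430 to 0.655) and the DBD height was 0.0621 of it (0.0380 to 0.101). Alone among the 8, it was called in a DBD replicate. KLF3 replicates 1 and 2 had 70 and 177 tags in their own called peaks, ΔDL replicates had 12 and 49, and DBD replicate 1 had 8, whereas no peak was called in DBD replicate 2.

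Peaks called for the 3 constructs at this site were not centred on the same bases. Relative to the centre of the 400 bp window, the KLF3 replicate peaks were centred at -7 and 56 bp, the ΔDL replicate peaks at -56 and -62 bp, and the DBD replicate 1 peak at -165 bp. The KLF3 replicates were thus 63 bp apart, and the ΔDL replicates both lay to the left of both. A stretch of 76 bases from -153 to -78 bp holds 50 base reads with exact copies in mm9, at 8 other places on 5 chromosomes, none of which overlapped a peak in any of the 6 replicate lists. Of the 50 base reads inside the called peaks, 100% were unique for both KLF3 replicates and for ΔDL replicate 1, 98.8% for ΔDL replicate 2 and 93.9% for DBD replicate 1. The KLF match at -145 bp lies within this stretch. The part of these copies in the positions of the called peaks was not tested. The other 7 peaks were unique throughout. In the RefSeq order of GRCm38.p6, which is another build, 3 genes lie between Uspl1 and Alox5ap. They are the lncRNA 2310047D07Rik, the tRNA gene n-TNgtt14 and the lncRNA Gm24105. No position was carried over, so whether any of them, the tRNA gene included, overlaps this peak or the copied stretch was not tested.

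**Figure D2:**
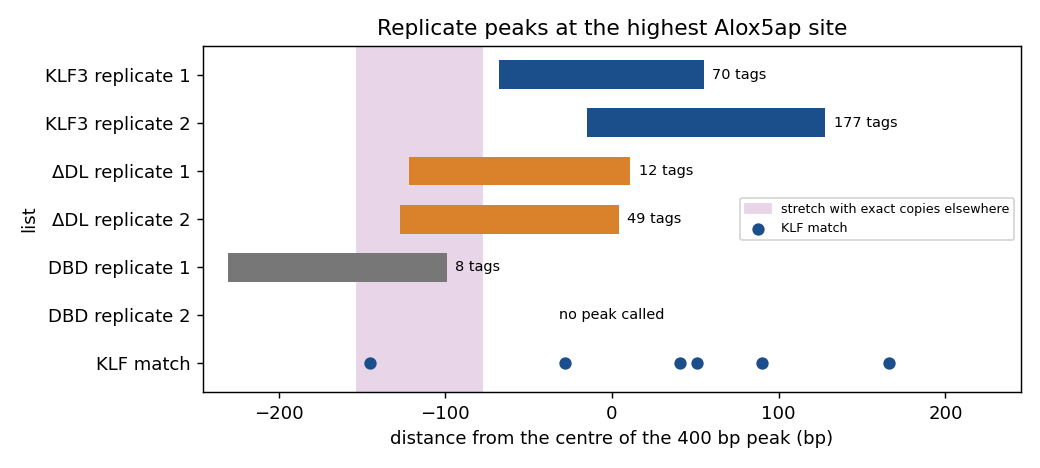
Peaks called on each replicate at the highest Alox5ap site, drawn as bars against the distance from the centre of the 400 bp peak (bp) with the tags in each; dots mark the 6 KLF matches and the band the stretch with exact copies elsewhere in mm9. The KLF3 bars are centred at -7 and 56 bp, the ΔDL bars at -56 and -62 bp and the DBD bar at -165 bp.

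This site also differed in sequence from most intergenic KLF3 peaks. It held 6 KLF matches, whereas 2.24% of 5002 intergenic KLF3 peaks and 24.1% of 4259 promoter KLF3 peaks held at least as many. Those shares cover peaks of any height. Of the KLF3 peaks at least as high as the lowest peak described here (197 normalized tags), 14.5% held at least 6. The height of this site was 1859, so that share is not matched to it. The paper reports that mean KLF3 peak height rose with the number of KLF3 motifs. The match count is therefore not independent of the height by which this site was chosen. Its G+C content was 65.1% and it held 38 CpG dinucleotides. Intergenic KLF3 peaks had medians of 44.6% and 4, and 98.1% of them held fewer CpG dinucleotides, while promoter KLF3 peaks had medians of 63.8% and 32. By base composition the site was therefore closer to the median promoter peak than to the median intergenic peak. The deposited conservation value of its KLF3 peak was 0.61, against a median of 0.07 for intergenic and 0.22 for promoter KLF3 peaks. AP-1, ETS (CCGGAA), RUNX (TGTGGTT) and CCAAT letters had no match in it.

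The downstream peak of Alox5ap (chr5:150123396-150123796) lay 46962 bp after the start site, where GENCODE vM1 has no gene either. It had 207 normalized tags with KLF3, 160 with ΔDL and 18.3 with DBD. The ΔDL ratio of 0.774 had an interval from 0.433 to 1.35, so no difference from KLF3 was detectable at this depth. The DBD ratio was 0.0884 (0.0181 to 0.282) and rested on about 3 DBD tags. KLF3 replicates had 10 and 20 tags in called peaks and ΔDL replicate 2 had 10, with no peak in the other 3 lists. This peak was thus close to even coverage with DBD and of ordinary height with KLF3, where 39.8% of the KLF3 peaks were lower.

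Mgst3, whose product is a microsomal glutathione transferase and peroxidase, had 3 peaks within 6158 bp of its start site. The other members with peaks had none within 10 kb. Of the 10750 genes with a peak, 23.2% had 3 or more. The promoter peak (chr1:169324022-169324422, centre 294 bp before the start site) had 955 normalized tags with KLF3, 560 with ΔDL and 124 with DBD, and ranked 211 by KLF3 height. Its ΔDL ratio was 0.586 (0.436 to 0.771) and its DBD ratio 0.130 (0.0781 to 0.206). The replicate peaks had 53 and 92 tags with KLF3 and 10 and 38 with ΔDL, with centres between -19 and 14 bp, and DBD had none. The centres of KLF3 and ΔDL therefore lay together here, unlike at Alox5ap.

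Both other Mgst3 peaks lay in its first intron by RefSeq and by GENCODE. At 799 bp after the start site (chr1:169322929-169323329) the height was 553 with KLF3, 263 with ΔDL and 86.2 with DBD. The ratios were 0.476 (0.309 to 0.705) for ΔDL and 0.156 (0.0839 to 0.274) for DBD. Replicate peaks had 22 and 60 tags with KLF3 and 6 and 20 with ΔDL, so this site was called in both replicates of both constructs. At 6158 bp (chr1:169317570-169317970) the height was 197, 95.7 and 21.4, the lowest KLF3 height of the 8. Here the ratios were 0.486 (0.220 to 0.923) for ΔDL and 0.109 (0.0189 to 0.295) for DBD. KLF3 replicates had 9 and 15 tags, ΔDL replicate 2 had 8, and the other lists had no peak. By the scores of replicate 2 alone the log2 ratio of ΔDL to KLF3 was -0.08, against -1.04 by the combined heights. The size of this difference thus depended on which tags were used. The least peak of the ΔDL replicate 2 list had 7 tags, so a much lower score ratio could not be had here. Within Mgst3, KLF3 heights were lower with distance from the start site, while the 3 ΔDL ratios differed by less than their intervals.

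The peak of Ptges, the synthase of prostaglandin E2, lay 17066 bp before the RefSeq start site (chr2:30775683-30776083). RefSeq as used in the deposited annotation calls it intergenic, while a longer Ptges transcript of GENCODE vM1 has it in an intron. Heights were 458 with KLF3, 247 with ΔDL and 44.3 with DBD. These gave ratios of 0.540 (0.341 to 0.811) for ΔDL and 0.0967 (0.0373 to 0.203) for DBD. KLF3 replicates had 17 and 49 tags and ΔDL replicate 2 had 15, whereas ΔDL replicate 1, the shallowest library, and both DBD replicates had no peak there.

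Lta4h, the leukotriene A4 hydrolase, had a pair of peaks 1533 bp apart. The peak at 29625 bp before the start site (chr10:92886316-92886716) had 254 normalized tags with KLF3, 231 with ΔDL and 53.1 with DBD. Its ΔDL ratio of 0.908 (0.550 to 1.44) was the highest of the 8, and no difference from KLF3 was detectable. By the scores of the replicates' own peaks, ΔDL was higher than KLF3 in replicate 1 (13 KLF3 and 8 ΔDL tags, log2 ratio 0.93 after scaling) and lower in replicate 2 (37 and 15 tags, log2 ratio -0.48). The sign of these values thus differed between replicates. A ΔDL replicate 1 peak needed at least 4 tags, each worth a score of 56.6, and KLF3 replicate 1 scored 238 here. A much lower ratio could therefore not be had in replicate 1, so these values cannot decide whether the replicates disagreed. The peak at 31158 bp (chr10:92884783-92885183), in a repeat of the L1MA8 family, had 239, 91.8 and 59.7. Its ΔDL ratio of 0.384 (0.183 to 0.747) was the lowest of the 8 and its DBD ratio of 0.250 (0.118 to 0.514) the highest. No ΔDL replicate had a called peak there, whereas KLF3 replicates had 16 and 25 tags. Neighbouring peaks of about the same KLF3 height thus had different ΔDL ratios, with intervals that overlapped.

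ΔDL lay at least 2-fold below KLF3 at 3 of the 8 peaks (both Mgst3 intron peaks and the Lta4h peak at -31158), against 14.9% of all peaks and 23.3% of the KLF3 peaks. These 3 calls rest on the combined heights. By the replicates' own scores no log2 ratio reached 2-fold: it was -0.25 and -0.76 at the Mgst3 peak at 799 bp and -0.08 in replicate 2 at the one at 6158 bp. None could be had at the Lta4h peak, where no ΔDL peak was called. Such a ratio exists only where a ΔDL peak was called, with at least 4 tags in replicate 1 and 7 in replicate 2. The ΔDL peak had 6 tags in replicate 1 at 799 bp and 8 in replicate 2 at 6158 bp. These are near the least values, so these 2 ratios cannot decide whether ΔDL was 2-fold lower. ΔDL lay at least 2-fold above KLF3 at 0 of the 8, against 28.9% of all peaks. The interval of the ΔDL ratio was wholly below equality at 6 of the 8 and reached it at 2, the Alox5ap downstream peak and the Lta4h peak at -29625. No such share was worked out over all peaks or the KLF3 peaks, so whether 6 of 8 is usual is not known. DBD lay at least 2-fold below KLF3 at 8 of 8, against 52.6% of all peaks and 79.2% of the KLF3 peaks, and above it at 0, against 3.27% of all peaks. With heights shifted to an equal median over all peaks, DBD lay as low at 6 of the 8, all but the Lta4h peaks. The shares under that shift were 34.9% of all peaks and 53.4% of the KLF3 peaks. Since all 8 are KLF3 peaks, the shares over KLF3 peaks are the nearer background. The median difference in log2 height was -0.90 for ΔDL and -3.07 for DBD, beside -0.35 and -2.54 over the KLF3 peaks and 0.42 and -1.45 over all peaks. Shifting heights to an equal median over the 2334 peaks listed for all 3 constructs put 8 of 8 ΔDL heights at least 2-fold below KLF3, and under the same shift 42.3% of all peaks and 65.4% of the KLF3 peaks lay as low.

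By region, the 5 intergenic peaks had a median ΔDL difference of -0.89 on the log2 scale, while the 5002 intergenic KLF3 peaks had 0.04. The 2 intron peaks had -1.06 beside -0.24 over 4333 intron KLF3 peaks, and the promoter peak of Mgst3 had -0.77 beside -0.71 over 4259 promoter KLF3 peaks. The promoter peak was therefore near the median of its class, and the intergenic and intron medians were below theirs. Single intergenic peaks were not all below: the intervals of the Alox5ap downstream peak (-1.21 to 0.43) and the Lta4h peak at -29625 (-0.86 to 0.53) hold 0.04. The classes include KLF3 peaks of any height, whereas the genes were chosen with KLF3 heights known, and the difference subtracts that height.

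**Figure D3:**
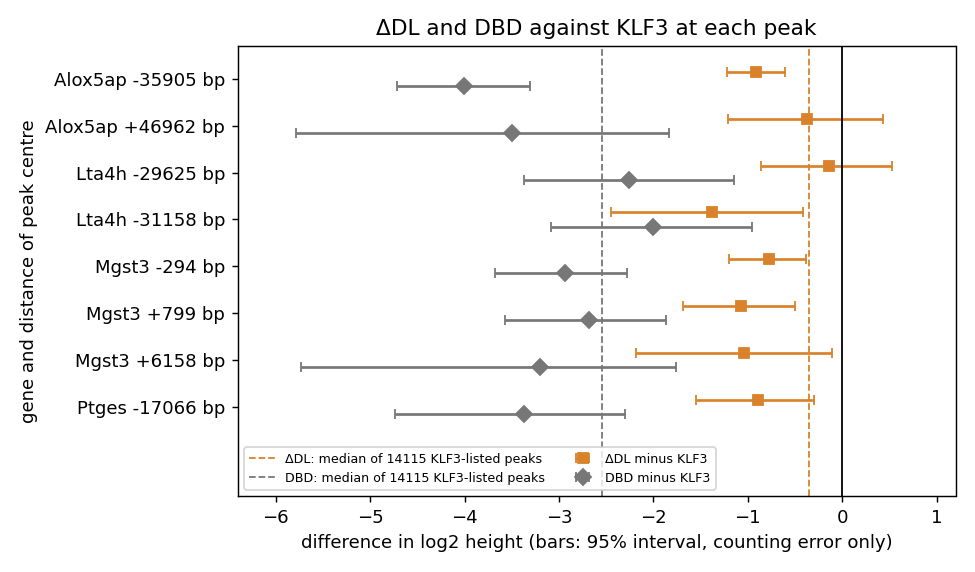
Difference in log2 height of ΔDL (squares) and DBD (diamonds) from KLF3 at the 8 peaks, with 95% intervals for counting error only; dashed lines are the medians of the 14115 KLF3 peaks, -0.35 and -2.54. All 8 DBD intervals lie below 0, and the ΔDL interval reaches 0 at the Alox5ap downstream peak and at the Lta4h peak at -29625.

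Of the 8 peaks, 4 were also listed for ΔDL, against 32.9% of the KLF3 peaks, and 0 for DBD, against 17.0%. The 4 were the Alox5ap upstream peak, the Lta4h peak at -29625, and the Mgst3 promoter and first intron peaks. A peak of at least 1 ΔDL replicate overlapped 7 of the 8, against 75.7% of the KLF3 peaks, and a peak of at least 1 DBD replicate overlapped 1, against 22.1%. All 4 found in ΔDL replicate 1 were also found in replicate 2. At the sites called in both replicates of KLF3 and ΔDL, the log2 ratio of the replicate scores was -0.92 and -1.03 for the Alox5ap upstream peak, -0.78 and -0.45 for the Mgst3 promoter peak, -0.25 and -0.76 for the Mgst3 peak at 799 bp, and 0.93 and -0.48 for the Lta4h peak at -29625. ΔDL was thus lower in both replicates at 3 of these 4 sites, and at the Lta4h peak the sign differed between replicates. There a much lower value could not be had in replicate 1, because a called ΔDL peak needed at least 4 tags. With 2 replicates against 2, no exact permutation test can reach 0.05, and none was run.

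**Figure D4:**
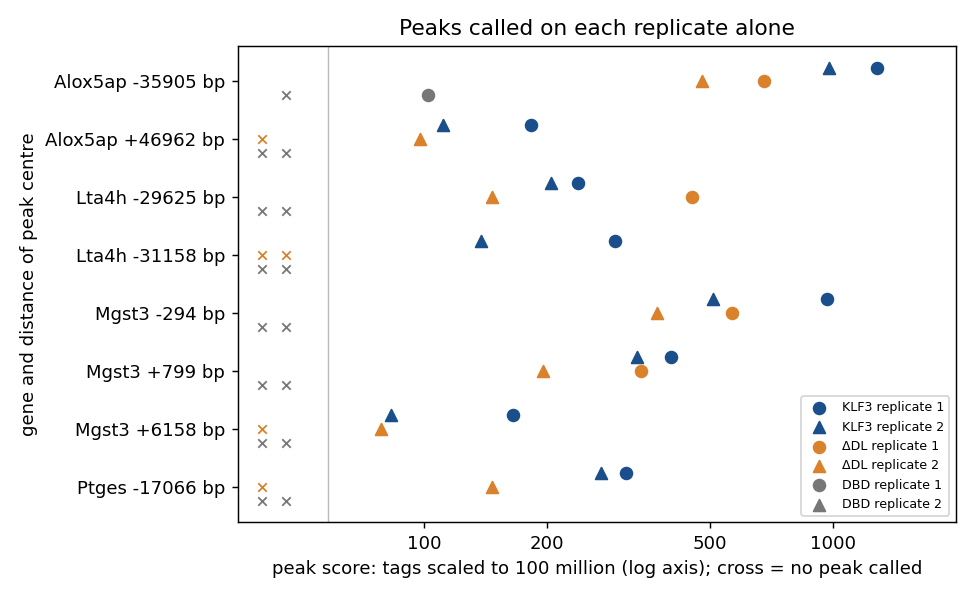
Scores of the peaks called on each replicate alone (tags scaled to 100 M, log axis), by construct (colour) and replicate (circle or triangle), with crosses at the left for lists without a peak. KLF3 has both points in all 8 rows, ΔDL has both in 4, and DBD has 1 point in all, at the Alox5ap upstream peak.

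The sequences printed above differed in their motifs. A KLF match was found in 7 of the 8 whole peaks, against 60.0% of all peaks and 76.3% of the KLF3 peaks. Of the KLF3 peaks at least as high as the lowest of the 8, 89.1% held one, so 7 of 8 was no excess. The exception was the Mgst3 peak at 6158 bp. Within the central 100 bp, 3 of the 8 had one (both Alox5ap peaks and the Mgst3 peak at 799 bp). The share there was 57.7% of the KLF3 peaks and 72.4% of those at least as high as the lowest of the 8. Positions are those of the leftmost base, counted from the peak centre. In the Mgst3 promoter peak all 3 KLF matches lay on the side away from the gene, at 77, 81 and 126 bp, and the first 2 overlap. Both KLF3 replicate peaks there were centred at 0 to 14 bp. In the Mgst3 intron peak at 799 bp, 2 CCACCC matches lay at 16 and 32 bp, the second directly followed by the RUNX letters TGTGGTT.

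AP-1 letters were found in 5 of the 8 peaks, against 16.5% of all peaks, 21.6% of the KLF3 peaks, and 29.8% and 29.3% of the intergenic and intron KLF3 peaks. Since TGACTCA on one strand reads TGAGTCA on the other, each site was counted once. The 5 were both Lta4h peaks (at 2 and -15 bp), both Mgst3 intron peaks (at -11 and -55 bp) and the Ptges peak, which had 2 (at -58 and 59 bp). Neither Alox5ap peak nor the Mgst3 promoter peak had a match. In the Lta4h peak at -29625 the AP-1 letters share 1 base with a CCAAT match. These counts describe letters in the windows, were not tested, and say nothing of which factor was bound.

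**Figure D5:**
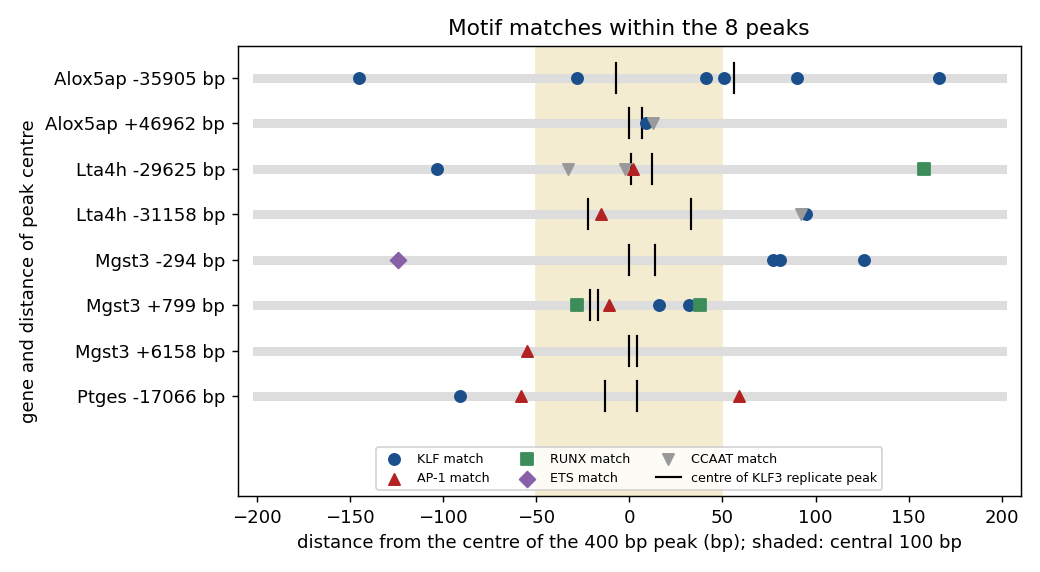
Positions of motif matches within the 8 peaks as distance from the peak centre (bp), with the centres of the KLF3 replicate peaks as vertical lines and the central 100 bp shaded. The Alox5ap upstream peak holds 6 KLF matches and no AP-1 match, and 5 other peaks hold an AP-1 match, at -58 to 59 bp.

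The 4 genes without a peak in the table could still have a peak in a single replicate. Ltc4s, the leukotriene C4 synthase, had 1, with 15 tags in KLF3 replicate 2, in a CpG island within its intron 4, 1533 bp after the start site. Mgst1 had none in any of the 6 lists. Mgst2 had 4, each in 1 list only and of 8 to 16 tags, and 2 of these lay in introns of Maml3. Both peaks named for Alox5 lay within March8, one in an intron and the other in its 3' UTR, with 9 tags in ΔDL replicate 2 and 13 in KLF3 replicate 2. None of these 7 peaks overlapped a peak of another replicate list.

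Single replicates also held peaks at the other genes that the table does not hold. The start site of Lta4h was called in KLF3 replicate 2, at 360 and 78 bp before the start site with 16 and 15 tags, and in ΔDL replicate 2, at 381 bp with 16 tags. The first of these overlapped the ΔDL peak, but no replicate 1 list had a peak there. Those 16 tags of KLF3 replicate 2 compare with a least value of 13 tags for any peak of that list. Alox5ap had a second site near its downstream peak, 47307 and 47286 bp after the start site, in an RMER17C repeat, with 6 tags in KLF3 replicate 1 and 9 in ΔDL replicate 2. In all, 18 such peaks carried the name of a member, 14 of them in 1 list only.

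RefSeq promoters of GRCm38.p6 (250 bases before to 50 after the start site) were found for 7 of the 8 genes, with none for Alox5ap and 2 for Mgst1. Of these 8 promoters 7 held a KLF match, against 62.2% of 32851 promoters. Mgst3 and Ptges had the most, with 5 each, Mgst2 had 3, and Ltc4s, Alox5 and Lta4h had 2 each, as did 1 promoter of Mgst1. Of the promoters with a match, that of Mgst3 alone had a peak in the table, and the other 6 had none. By the deposited start site that peak was centred 294 bp before it, outside the 250 bases searched here. The KLF matches within the peak lay farther out still, so they are not among the 5 matches counted for this promoter by that start site.

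Other genes of the pathways were taken from a list of 75 genes of eicosanoid and glutathione metabolism, from phospholipases to receptors. The table held 83 peaks at 32 of them. Of the 83, 51 were KLF3 peaks, as were 14115 of all 22188 peaks. ΔDL lay at least 2-fold below KLF3 at 15 of the 83 and above it at 18, against 14.9% and 28.9% of all peaks, and DBD lay below at 47 and above at 1, against 52.6% and 3.27%. With equal medians over the peaks of all 3 constructs, 32 of the 83 had ΔDL at least 2-fold below KLF3, against 42.3% of all peaks. Their median difference was 0.31 for ΔDL and -1.86 for DBD, near the 0.42 and -1.45 of all peaks. The highest KLF3 peaks were those of Slco2a1, the prostaglandin transporter, with 826 normalized tags (1287 with ΔDL and 81.6 with DBD), of Gpx1, a glutathione peroxidase, with 744 at its promoter (568 and 43.1), and of Ptgs2, the inducible cyclooxygenase, with 481 (495 and 45.6). The ΔDL difference in log2 height was 0.64 at the Slco2a1 peak and 0.04 at the Ptgs2 peak, and neither kept its sign under both shifts of the heights (0.22 and -0.39 for Slco2a1, -0.38 and -0.99 for Ptgs2). The most peaks were found at Pla2g4a, the cytosolic phospholipase A2, with 17, at Ptgs2 with 7, and at Abcc1, an exporter of leukotriene C4, with 5. Of the 17 at Pla2g4a, 7 were KLF3 peaks and 8 were listed for DBD, but 13 lay more than 200 kb from its start site, up to 1541455 bp, and carry its name only as the nearest start site.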

How the data were processed

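V5 ChIP-seq of KLF3, ΔDL and DBD was used in 2 replicates per construct. The authors aligned 50 bp reads to mm9 and called peaks on each replicate against its paired input with HOMER (5-fold enrichment over input, false discovery rate 0.001). The submitters' processing notes give FastQC 0.10.1, Bowtie2 2.0.0, SAMtools 0.1.18 and HOMER 4.1. Peaks found in both replicates make up 3 merged lists, joined by the authors into a table of all peaks. The deposited heights are log2 values of normalized tags that the authors counted over both replicates. HOMER adds a random amount of up to about 1 tag: the height differed between deposited tables for 6842 of 10820 shared KLF3 intervals, so tags behind a height are known to within about 1. The deposited peak scores are a signal, tags per 100 M, and were whole multiples of 1 tag in each replicate list, so they gave the tags of each replicate peak. The G+C content, CpG content and conservation are fractions that the authors deposited; G+C was recomputed here from mm9.

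Peaks of the 8 genes were taken by gene name. Overlap needed 1 bp in common, and at least 2-fold in height was called lower or higher. No test was run, since heights have no replicate error. Motifs were matched in the mm9 sequence, exact 50 base copies were sought in all of mm9 on both strands, and sites were placed with GENCODE vM1. The pathway list was written from general knowledge. Named with values were the 8 genes with each of their peaks, the 3 listed pathway genes with the highest KLF3 peak and the 3 with the most peaks, and the 3 peaks most like the Alox5ap upstream and Mgst3 promoter peaks by Euclidean distance over the 3 log2 heights. The Myh9 peak next in height, and the peaks of other pathway genes in the observations, were named after their values were seen. The genes and lists were chosen with earlier results of these data known. The overlap, motif, tag and interval code was tested on simulated data. The code ran under Python 3.11.15 with pysam 0.24.0, matplotlib 3.10.9, scipy 1.17.1, pandas 2.3.3 and numpy 2.4.6.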

Additional observations from a re-analysis of the deposited data

How the results depend on the processing

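The 8 peaks were reduced to 3, all at Mgst3, when centres had to lie within 10 kb of the start site. With equal medians over the peaks of all 3 constructs, the median ΔDL difference was -1.93, 8 ΔDL heights were at least 2-fold below KLF3, and so were 32 of 83 peaks of the pathway list, against 42.3% of all peaks and 65.4% of the KLF3 peaks under that shift. With equal medians over all peaks, 6 ΔDL heights were at least 2-fold lower (25.6% of all peaks, 40.0% of the KLF3 peaks), and DBD was above ΔDL at 2 of the 8. Under that shift the median DBD difference was -1.62, and 6 DBD heights were at least 2-fold lower (34.9% of all peaks, 53.4% of the KLF3 peaks). Without a shift, 6 ΔDL heights were at least 1.5-fold lower, and no share over all peaks is given for that fold. From replicate scores alone, the median difference was -0.51 to -0.48 for ΔDL (4 and 7 sites) and -3.65 for DBD (1 site). These scores exist only where a peak of the construct was called, which leaves out its lowest sites. At the Lta4h peak at -29625 the ΔDL difference turned to 0.93 without replicate 2, and at the Mgst3 peak at 6158 bp it was -0.08 without replicate 1. At both, the least tags of a called ΔDL peak left no room for a much lower value. The number of peaks called was 8 in either replicate for KLF3, 4 to 7 for ΔDL and 0 to 1 for DBD. At least 200 bp shared left 0 for KLF3 and 0 for ΔDL, because no replicate peak is longer than 143 bp. A KLF match was found in 3 peaks in the central 100 bp and in 4 with CCACCC or CCGCCC only. With those letters only, 46.8% of all peaks and 62.2% of the KLF3 peaks held one. Of the KLF3 peaks at least as high as the lowest of the 8, 75.6% did. Of the differences from KLF3 at single peaks, no other changed sign under the alternatives run. No paired analysis was possible because no result comes from a test: the heights combine both replicates, and scores matched by replicate number, given as values only, exist for both replicates of KLF3 and ΔDL at 4 sites. ΔDL replicate 1, with 1.77 M tags, limits which ΔDL peaks could be called.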

Other observations

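Peaks with heights most like those of the 2 highest member peaks were found at other kinds of genes. By Euclidean distance over the 3 log2 heights, the peaks nearest to the Alox5ap upstream peak were at the Myh9 promoter (distance 0.33, 1846 normalized tags with KLF3, 826 with ΔDL and 100 with DBD), at -15784 bp from the start site of Ppp1r2 (0.34) and at the Itsn1 promoter (0.41). Those nearest to the Mgst3 promoter peak were in introns of Fstl1 (0.16) and of Vim (0.18), which encodes the intermediate filament vimentin, and 16194 bp after the start site of Gm4262 (0.17). Each likeness rests on 3 values per peak.

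Within the pathway list, 6 of 6 peaks at glutathione peroxidase genes were KLF3 peaks and lay at least 2-fold lower with DBD, against 79.2% of the KLF3 peaks. At cytosolic glutathione transferase genes 7 of 10 were KLF3 peaks and 8 were lower with DBD. At prostanoid enzyme genes 13 of 19 were KLF3 peaks and 13 were lower with DBD. Of all 22188 peaks, 14115 were KLF3 peaks, and the shares lower with DBD were 52.6% of all peaks and 79.2% of the KLF3 peaks. Of the 19 peaks at phospholipase genes 5 were lower with DBD, and 6 were at least 2-fold higher with ΔDL, against 28.9% of all peaks; all 6 carry the name of Pla2g4a, and 5 of them lay more than 200 kb from its start site. At the promoter of Gclm, the modifier subunit of the enzyme that starts glutathione synthesis, heights were 419 with KLF3, 256 with ΔDL and 17.8 with DBD. At the promoter of Gstz1 they were 320, 140 and 38.6. Ptgs1, the constitutive cyclooxygenase, had 3 peaks, all KLF3 peaks of at most 164 normalized tags and all lower with DBD. AP-1 letters were found in 17 of the 83 peaks (20.5%) and KLF letters in 52 (62.7%), near the 16.5% and 60.0% of all peaks. The differences between these groups of genes were not tested.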
